A study of Homo sapiens with 8 samples.

Results

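The chromosome 19 miRNA cluster is a run of related hairpins that give many of the miRNAs of human embryonic stem cells. Its members were chosen by name, as every miRNA of the deposited table named miR-498, miR-1283, miR-1323 or from miR-512 to miR-527, with any letter, copy number or arm. The rule took 68 of 594 miRNAs: 30 have 5p in their name, 32 have 3p, and the other 6 carry neither. The sequences come from RefSeq, which uses build GRCh38.p14 and held 65 of the 68. Of these 65, 64 lie on chromosome 19 and 1, miR-514a-3p, lies on chromosome X, so it carries a number inside the rule and is no part of the cluster. As the rule took it, miR-514a-3p is still counted below among the 68 members and the 32 3p arms. It is left out of the sums by subfamily and by seed. miR-518f-3p, miR-522-3p and miR-527 had no entry. The 64 came from 44 loci on the plus strand of chr19:53666692-53762418. In GENCODE v29, of the same build, the lincRNA gene AC011453.1 (chr19:53761961-53764199, plus strand) covered both mature arms of 1 of these loci, MIR519A2. No other listed gene in the stretch, apart from the miRNA genes themselves, overlapped a mature arm.

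Small RNAs were sequenced from H1, an established human embryonic stem cell line, in 4 genotypes with 2 libraries each. The genotypes are wild type, homozygous or hemizygous for Dicer-S1344L, and Dicer-null, and the S1344L lines were engineered with CRISPR-Cas9. The labels call the RNA samples biologically independent but do not say whether a line is 1 clone, or spell out what the second allele of the hemizygous line is. Their short library names share the code fs between the hemizygous line (pmfs) and the null line (fsfs), and pm between the hemizygous and the homozygous line (pmpm), without defining either code. The libraries do not measure the Dicer transcript, so the genotypes could not be checked against it.

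Dicer cuts the loop off a miRNA hairpin and leaves a duplex of a 5p and a 3p arm, of which 1 arm is usually kept as the guide that loads into Argonaute. Its RNase IIIb domain cuts the strand that carries the 5p arm and its RNase IIIa domain the strand that carries the 3p arm. S1344L, a substitution seen repeatedly in tumours, lies in RNase IIIa. The cluster is found in primates only, is imprinted, and is known for its activity in placenta and in pluripotent cells. Bases 2 to 8 of a miRNA, the seed, pair with target transcripts, and miRNAs with the same seed are taken to share many targets.

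The sequences below, from RefSeq, show the arms on which the results turn, grouped by seed. Each is written 5′ to 3′ with the seed in capitals. First come the 5p arms that fell most or formed the largest pools.
miR-515-5p: uUCUCCAAaagaaagcacuuucug
miR-519e-5p: uUCUCCAAaagggagcacuuuc
miR-520d-5p: cUACAAAGggaagcccuuuc
miR-524-5p: cUACAAAGggaagcacuuucuc
miR-518d-5p: cUCUAGAGggaagcacuuucug
miR-518e-5p: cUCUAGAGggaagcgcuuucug
miR-518f-5p: cUCUAGAGggaagcacuuucuc
miR-525-5p: cUCCAGAGggaugcacuuucu
miR-526b-5p: cUCUUGAGggaagcacuuucugu
The next 5p arms did not pass the test in homozygous cells.
miR-520a-5p: cUCCAGAGggaaguacuuucu
miR-512-5p: cACUCAGCcuugagggcacuuuc
miR-498-5p: uUUCAAGCcagggggcguuuuuc
miR-519d-5p: cCUCCAAAgggaagcgcuuucuguu
The last set shows 3p arms that rose, and others that share a seed with them or with abundant miRNAs outside the cluster.
miR-515-3p: gAGUGCCUucuuuuggagcguu
miR-519e-3p: aAGUGCCUccuuuuagaguguu
miR-498-3p: aAAGCACCuccagagcuugaagc
miR-520a-3p: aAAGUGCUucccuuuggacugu
miR-520c-3p: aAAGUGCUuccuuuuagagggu
miR-512-3p: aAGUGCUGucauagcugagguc
miR-519d-3p: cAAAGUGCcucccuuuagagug
miR-526b-3p: gAAAGUGCuuccuuuuagaggc
miR-520f-3p: aAGUGCUUccuuuuagaggguu

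Many names share letters. The 65 members with a sequence held 55 distinct sequences and 35 distinct seeds. The sequence shown for miR-518d-5p is also that of miR-520c-5p and miR-526a-5p. That of miR-518e-5p is also that of miR-519a-5p, miR-519b-5p, miR-519c-5p, miR-522-5p and miR-523-5p. miR-519a-2-5p equals miR-520b-5p, miR-517a-3p equals miR-517b-3p, and miR-516a-3p equals miR-516b-3p. How reads that match several of these names were counted is not given in the sources used here, so these names are not separate measurements. The 6 names of the miR-518e-5p sequence lay between 281 and 471 RPM in the wild-type libraries. The 3 names of the miR-518d-5p sequence lay between 162 and 389 RPM there.

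Values are RPM, recovered reads scaled to the denominator that the authors' log2 values imply. RPM here is thus no share of a library's miRNA reads. Dividing each library's miRNA total by its denominator gave 2.09 and 2.33 for wild-type and 2.43 and 2.18 for homozygous cells. The quotients were 0.729 and 2.42 for hemizygous and 0.118 and 0.183 for null cells. A summed RPM depends on this quotient as well as on the share of miRNA reads. A library's miRNA reads numbered from 137655 (null) to 2725756 (wild type), and 1 read was worth 0.715 to 1.33 RPM. Of these reads the cluster took 8.71% and 7.90% in wild-type cells, 7.30% and 7.86% with homozygous S1344L, 7.54% and 7.85% with hemizygous S1344L, and 3.80% and 3.78% without Dicer. Hemizygous replicate 1 stood apart: its cluster members summed to 54927 RPM against 190225 RPM in replicate 2, while the wild-type and homozygous libraries lay between 171471 and 184201 RPM. The median miRNA of the whole table was 1.94 (log2) higher in hemizygous replicate 2 than in replicate 1, so hemizygous levels on this scale carry a wide error. The tests of levels share the spread of all groups, so this gap also widens the SE of comparisons without hemizygous cells. The log2 level of a member differed by a median of 0.10 between the homozygous libraries and 0.27 between the wild-type libraries. Between the hemizygous libraries the log2 level of a member differed by a median of 2.10 (n = 68), and the log2 3p/5p ratio of a hairpin by a median of 0.65 (n = 28) and by up to 2.68. All 8 listed markers of pluripotent cells (miR-302, miR-367 and miR-371 to miR-373 arms) were above 0 in all 8 libraries, summing to 830029 and 889641 RPM in the wild type, 1153474 and 1060054 with homozygous S1344L, 369241 and 1195314 with hemizygous S1344L, and 61845 and 83721 without Dicer. The 7 fibroblast markers summed to 42007 and 53666 RPM in the wild type, 29111 and 23278 with homozygous S1344L, 5466 and 26448 with hemizygous S1344L, and 1660 and 2975 without Dicer. The 4 neural markers summed to 21450 and 18970 RPM in the wild type, 29705 and 24573 with homozygous S1344L, 12144 and 28930 with hemizygous S1344L, and 760 and 1166 without Dicer. Of the 3 blood markers 2 were in the table, and they summed to 322 and 542 RPM in the wild type, 1073 and 869 with homozygous S1344L, 192 and 870 with hemizygous S1344L, and 144 and 110 without Dicer. The blood and neural sums were thus higher, and the fibroblast sums lower, in both homozygous libraries than in either wild-type library. The fibroblast, neural and blood lists each mix 5p and 3p arms, such as miR-9-5p and miR-128-3p among the neural markers. The part of this mix in the sums was not tested. Markers within the blood and neural lists moved in opposite directions. The highest neural marker stood at 14848 and 13011 RPM in the wild type and 26035 and 21552 with homozygous S1344L. The lowest neural marker stood at 1440 and 1362 RPM in the wild type and 159 and 92.6 with homozygous S1344L. In the same order the higher blood marker stood at 280, 457, 1055 and 855 RPM, and the lower at 41.3, 85.6, 18.01 and 14.4. The part of other cell types in the results was not tested, and in bulk libraries fewer cells of a type and less RNA per cell cannot be told apart.

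**Figure D1:**
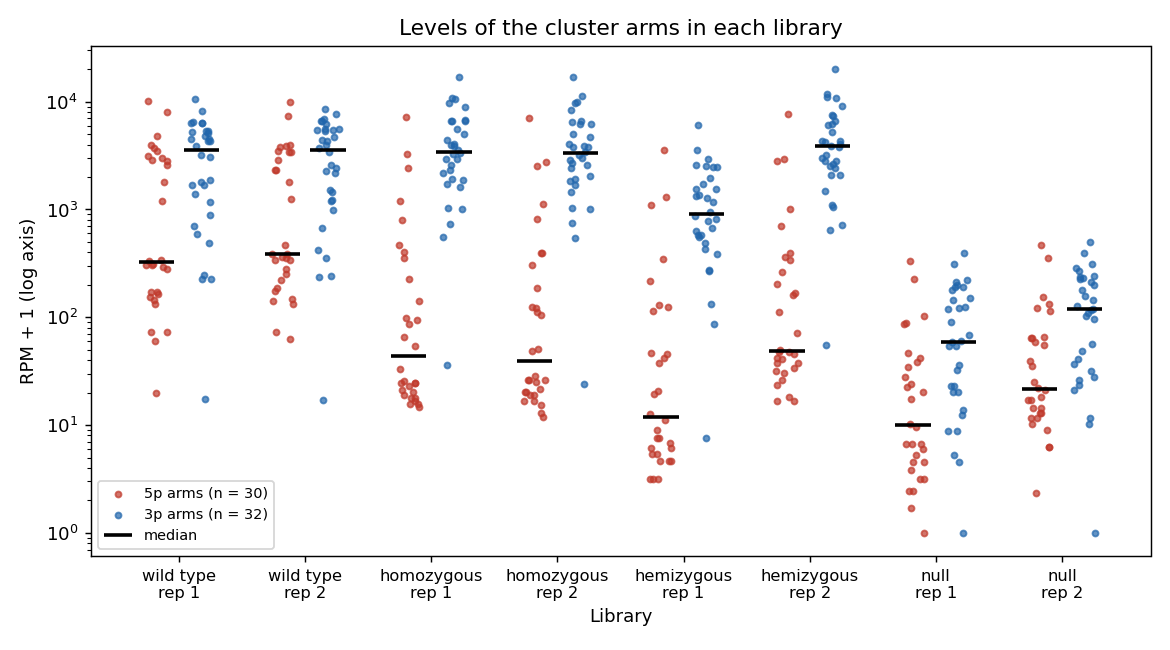
Level of each 5p arm (red, n = 30) and each 3p arm (blue, n = 32, with miR-514a-3p) of the cluster in each of the 8 libraries, as RPM + 1 on a log axis, with the median as a bar. The 5p median lies at 323 and 386 RPM in the wild-type libraries and at 42.4 and 37.9 RPM in the homozygous, while the 3p median lies between 3319 and 3557 RPM in those 4 libraries.

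In homozygous S1344L cells most 5p arms of the cluster fell, and its 3p arms had a median change near 0. Of the 30 5p arms, 21 were lower, 0 were higher and 9 did not pass the test (limma on log2(RPM + 1), Benjamini-Hochberg adjusted p under 0.05 over all 594 miRNAs), with a median log2 change of -3.27. Of all miRNAs measured, 22.1% were called lower and 9.93% higher. Of the 32 3p arms, 3 were higher, 0 were lower and 29 did not pass, with a median of 0.12. The 197 5p arms outside the cluster had 90 lower, 1 higher and a median of -2.05. The 268 3p arms outside it had 53 higher, 12 lower and a median of 0.69. The count of 5p arms that fell was 6 without homozygous replicate 1, without homozygous replicate 2 or without wild-type replicate 2, and 11 without wild-type replicate 1; with identical sequences counted once it was 13 of 22. With libraries scaled to their totals of miRNA reads, the cluster had 8 3p arms higher and 2 lower. The median change over all miRNAs was then -0.10. The share of all miRNAs called at that scaling is not given here, so these 2 counts are not set against it. More 3p arms were also called higher when the fit held only the wild-type and homozygous libraries.

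miR-515 was the most abundant hairpin of the wild type and showed the pattern at high depth. Its 5p arm stood at 10242 and 9962 RPM in wild-type cells, 1201 and 1128 with homozygous S1344L, 342 and 1003 with hemizygous S1344L, and 224 and 354 without Dicer. All homozygous and hemizygous libraries lay below both wild-type libraries, and all but hemizygous replicate 1 lay above both null libraries. The log2 change in homozygous cells was -3.12 ± 0.89 (SE; adjusted p = 0.00303), and the call was lost when any 1 of the wild-type or homozygous libraries was left out. The 3p arm of miR-515 stood at 4316 and 3946 RPM in wild-type cells, 10863 and 11162 with homozygous S1344L, 3527 and 11882 with hemizygous S1344L, and 57.9 and 116 without Dicer. Both homozygous libraries exceeded both wild-type libraries, but the change of 1.42 ± 0.86 (SE; adjusted p = 0.224) did not pass the test.

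The deepest 5p falls in homozygous cells were those of miR-525, miR-524 and miR-526b, followed by miR-518f. miR-525-5p stood at 3959.7 and 3492 RPM in wild-type cells, 97.4 and 103 with homozygous S1344L, 45.9 and 109.7 with hemizygous S1344L, and 45.7 and 119.8 without Dicer. The mutant and null libraries were all far below the wild type and overlapped each other. Its log2 change in homozygous cells was -5.20 ± 0.97 (SE; adjusted p = 8.99e-06). miR-524-5p stood at 3459.8 and 3821 RPM in wild-type cells, 139.8 and 121 with homozygous S1344L, 36.4 and 161 with hemizygous S1344L, and 33.6 and 65.2 without Dicer, a change of -4.79 ± 0.97 (SE; adjusted p = 2.9e-05). The homozygous libraries of miR-524-5p lay above both null libraries. miR-526b-5p stood at 2822 and 2332 RPM in wild-type cells, 94.3 and 111 with homozygous S1344L, 40.8 and 168 with hemizygous S1344L, and 101 and 113 without Dicer, a change of -4.64 ± 0.96 (SE; adjusted p = 4.74e-05). miR-518f-5p stood at 1208 and 1237 RPM in wild-type cells, 53 and 48.1 with homozygous S1344L, 18.2 and 48.9 with hemizygous S1344L, and 40.7 and 54.6 without Dicer, a change of -4.57 ± 1.00 (SE; adjusted p = 0.000107). For both of these arms the homozygous and null libraries overlapped. The 3p arms of the same hairpins did not pass the test in homozygous cells, with changes of -0.14 for miR-525-3p, 0.35 for miR-524-3p, -1.08 for miR-526b-3p and -0.06 for miR-518f-3p.

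Some 5p arms did not pass the test in homozygous cells, and they ranged from arms near their wild-type level to arms well below it. miR-512-5p, the second most abundant 5p arm, stood at 8042 and 7414 RPM in wild-type cells, 7159 and 7124 with homozygous S1344L, 3554 and 7715 with hemizygous S1344L, and 329 and 463 without Dicer. Its homozygous libraries lay just below the wild-type libraries, and the change was -0.11 ± 0.84 (SE; adjusted p = 0.945). miR-498-5p stood at 4778 and 3903 RPM in wild-type cells, 3267 and 2767 with homozygous S1344L, 1317 and 2933 with hemizygous S1344L, and 87.9 and 152 without Dicer, with a change of -0.52 ± 0.88 (SE; adjusted p = 0.733). The homozygous libraries of miR-498-5p lay below both wild-type libraries by less than the test could call. With only the wild-type and homozygous libraries in the limma fit, its adjusted p was 0.058, that of miR-520a-5p 0.056 and that of miR-512-5p 0.612. miR-520a-5p stood at 3675 and 3392 RPM in wild-type cells, 2431 and 2529 with homozygous S1344L, 1097 and 2809 with hemizygous S1344L, and 85 and 133 without Dicer, with a change of -0.51 ± 0.89 (SE; adjusted p = 0.743). miR-519d-5p, a rare arm, stood at 59.2 and 146 RPM in wild-type cells, 84.7 and 124 with homozygous S1344L, 11.7 and 201 with hemizygous S1344L, and 4.29 and 13.3 without Dicer, and its wild-type, homozygous and hemizygous libraries overlapped, with hemizygous replicate 1 inside the range of the null. miR-516a-5p went from 2567 and 2882 RPM in the wild type, and 790.2 and 807 in homozygous cells, a lower level in both, and its change of -1.77 ± 0.94 (SE; adjusted p = 0.147) did not pass. miR-517-5p, miR-520g-5p, miR-520e-5p and miR-520f-5p, all with wild-type means of 207 RPM or less, were the other 4 that did not pass, with changes of -1.75, -2.00, -1.98 and -1.05. With upper-quartile scaling the changes of miR-512-5p, miR-498-5p and miR-520a-5p turned positive, so no direction is given for them.

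The contrast between miR-520a-5p and miR-525-5p was the widest among cluster arms of 1 side that differ by at most 2 bases. They share the seed UCCAGAG and differ by A12U and U14C, counted from 1 at the 5′ end of miR-520a-5p. The lines below show both arms with the differing positions in capitals.
miR-520a-5p: cuccagagggaAgUacuuucu
miR-525-5p: cuccagagggaUgCacuuucu
miR-520a-5p lies at chr19:53690895-53690915 and miR-525-5p at chr19:53697547-53697567, both on the plus strand. Their wild-type means were close, at 3534 ± 200.2 RPM (SD, n = 2) and 3726 ± 330.4 RPM (SD, n = 2). In homozygous cells miR-520a-5p kept 70.2% of its wild-type level and miR-525-5p 2.69%. In hemizygous cells the shares were 55.3% and 2.09%, and in null cells 3.09% and 2.22%. The pair was picked after its values were seen, and the difference is given without a test.

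Most 5p arms of the cluster end alike, and the arms without the common ending had a smaller median change. The motif GCNCUUUC, with N any base, was chosen after the values were seen and searched on the mature strand only. It was found in 25 of 30 5p arms of the cluster and in 26 (3.21%) of all 809 RefSeq mature 5p miRNAs, which include those of the cluster. Names that share a sequence are each counted. The 5 arms that lacked it were miR-498-5p, miR-516b-5p, miR-517-5p, miR-520a-5p and miR-520e-5p. Their log2 changes in homozygous cells ran from -2.79 to -0.51 with a median of -1.75, against a median of -3.65 for the 25 that held it. Of the 9 5p arms that did not pass the test, 5 held the motif: miR-512-5p, miR-516a-5p, miR-519d-5p, miR-520f-5p and miR-520g-5p. miR-516b-5p, which ends in GCACUUU and so lacked only the final C of the motif, passed. The match is a description of letters and no test was made of it.

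Among the 3p arms, the 3 that rose were minor partners of an abundant 5p arm in the wild type. miR-498-3p stood at 226 and 356 RPM in wild-type cells, 2937 and 2896 with homozygous S1344L, 576 and 2826 with hemizygous S1344L, and 11.4 and 25.3 without Dicer. Both homozygous libraries and hemizygous replicate 2 lay far above the wild type, and hemizygous replicate 1 lay above it by less. The change in homozygous cells was 3.36 ± 0.94 (SE; adjusted p = 0.00243). miR-519e-3p stood at 695 and 677 RPM in wild-type cells, 5602 and 4729 with homozygous S1344L, 1724 and 5230.4 with hemizygous S1344L, and 12.9 and 22.6 without Dicer, a change of 2.91 ± 0.91 (SE; adjusted p = 0.00719). miR-520a-3p stood at 488 and 422 RPM in wild-type cells, 2601 and 2567 with homozygous S1344L, 675 and 3024 with hemizygous S1344L, and 7.86 and 20 without Dicer, a change of 2.51 ± 0.94 (SE; adjusted p = 0.0262). For all 3, every S1344L library exceeded every wild-type library and every null library lay below it. None of the 3 kept its call when any 1 of the wild-type or homozygous libraries was left out. Further 3p arms of this kind were higher in both homozygous libraries without passing: miR-516a-3p by 2.09 (adjusted p = 0.0864), miR-512-3p by 1.52 (adjusted p = 0.16) and miR-515-3p by 1.42 (adjusted p = 0.224).

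miR-520f-3p, miR-519b-3p and miR-517b-3p, abundant 3p arms of the wild type, had small changes in homozygous cells that did not pass the test. miR-520f-3p, the most abundant 3p arm of the wild type, stood at 10567 and 8608 RPM in wild-type cells, 8829.5 and 8418 with homozygous S1344L, 2956 and 9167 with hemizygous S1344L, and 143 and 234 without Dicer. The homozygous libraries fell between or near the wild-type libraries, and the change was -0.15 ± 0.85 (SE; adjusted p = 0.938). miR-519b-3p went from 8255 and 6615 RPM in the wild type, and 6769 and 6677 in homozygous cells, a change of -0.14, and miR-517b-3p from 6372 and 5418 RPM in the wild type, and 6640.1 and 6263 in homozygous cells, a change of 0.13. Neither passed the test, with adjusted p of 0.938 for both. miR-512-3p, whose partner is a 5p guide and whose change of 1.52 did not pass, had a larger difference. At 6473 and 5413 RPM in wild-type cells, 17024 and 16941 with homozygous S1344L, 6128 and 20033 with hemizygous S1344L, and 309 and 497.8 without Dicer, it was the most abundant arm of the cluster in homozygous and hemizygous cells.

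The arm that was the guide in the wild type, here the arm with the higher mean log2 RPM, separated the 3p arms. In 18 hairpins the 3p arm was the guide, and none of these 18 3p arms passed the test in homozygous cells, with a median change of -0.13 and a range of -1.08 to 0.85. In 10 hairpins the 5p arm was the guide, and 3 of their 3p arms were higher, with a median of 1.81 and a range of -0.14 to 3.36. The grouping uses wild-type values that also enter the change, so the contrast is a description. A pair of 3p arms shows it at near-equal sequence: miR-519e-3p and miR-520f-3p differ by C7U and U19G, counted from 1 at the 5′ end of miR-519e-3p, which places the first difference inside the seed. Their differing positions are in capitals below.
miR-519e-3p: aagugcCuccuuuuagagUguu
miR-520f-3p: aagugcUuccuuuuagagGguu
miR-519e-3p, at chr19:53679991-53680012 with a dominant 5p partner, reached 753% of its wild-type level in homozygous cells. miR-520f-3p, at chr19:53682213-53682234 with hardly any 5p partner, stood at 89.9%.

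The 3p/5p ratio within a hairpin does not depend on how a library was scaled, apart from the 1 RPM added to each arm. It moved toward 3p in 26 of the 28 hairpins with both arms in the table in homozygous cells, with a median log2 change of 3.64. Hairpins that share an arm sequence are each counted, so the 28 are not all separate measurements. Of all 186 hairpins measured, 79% moved toward 3p, so this shift was common to most hairpins. The largest change was that of miR-519e, whose log2 ratio was -2.16 and -2.54 in wild-type cells, 3.59 and 3.57 with homozygous S1344L, 3.78 and 3.94 with hemizygous S1344L, and -0.69 and -1.43 without Dicer. The S1344L libraries lay apart from both the wild type and the null, and the change in homozygous cells was 5.93 ± 0.40 (SE; adjusted p = 4.96e-08). It was 5.14 ± 0.36 (SE; adjusted p = 7.12e-08) for miR-524 and 5.06 ± 0.45 (SE; adjusted p = 4.24e-07) for miR-525. The next largest were 4.90 ± 0.48 (SE; adjusted p = 9.54e-07) for miR-516b and 4.65 ± 0.41 (SE; adjusted p = 4.07e-07) for miR-520d. miR-519d and miR-520f did not pass, at 0.00 ± 0.67 (SE; adjusted p = 0.996) and 0.90 ± 1.04 (SE; adjusted p = 0.436). The log2 ratio of miR-519d was 6.41 and 5.47 in wild-type cells, 6.26 and 5.63 with homozygous S1344L, 6.93 and 5.03 with hemizygous S1344L, and 4.48 and 4.02 without Dicer, with the homozygous libraries inside the range of the wild type. miR-512, at 1.63 ± 0.40 (SE; adjusted p = 0.00199), miR-520e, at 1.97 ± 0.71 (SE; adjusted p = 0.0204), and miR-520c, at 2.36 ± 0.60 (SE; adjusted p = 0.00247), passed with the smallest changes. Leaving out any 1 library kept the count at 25 or 26.

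**Figure D2:**
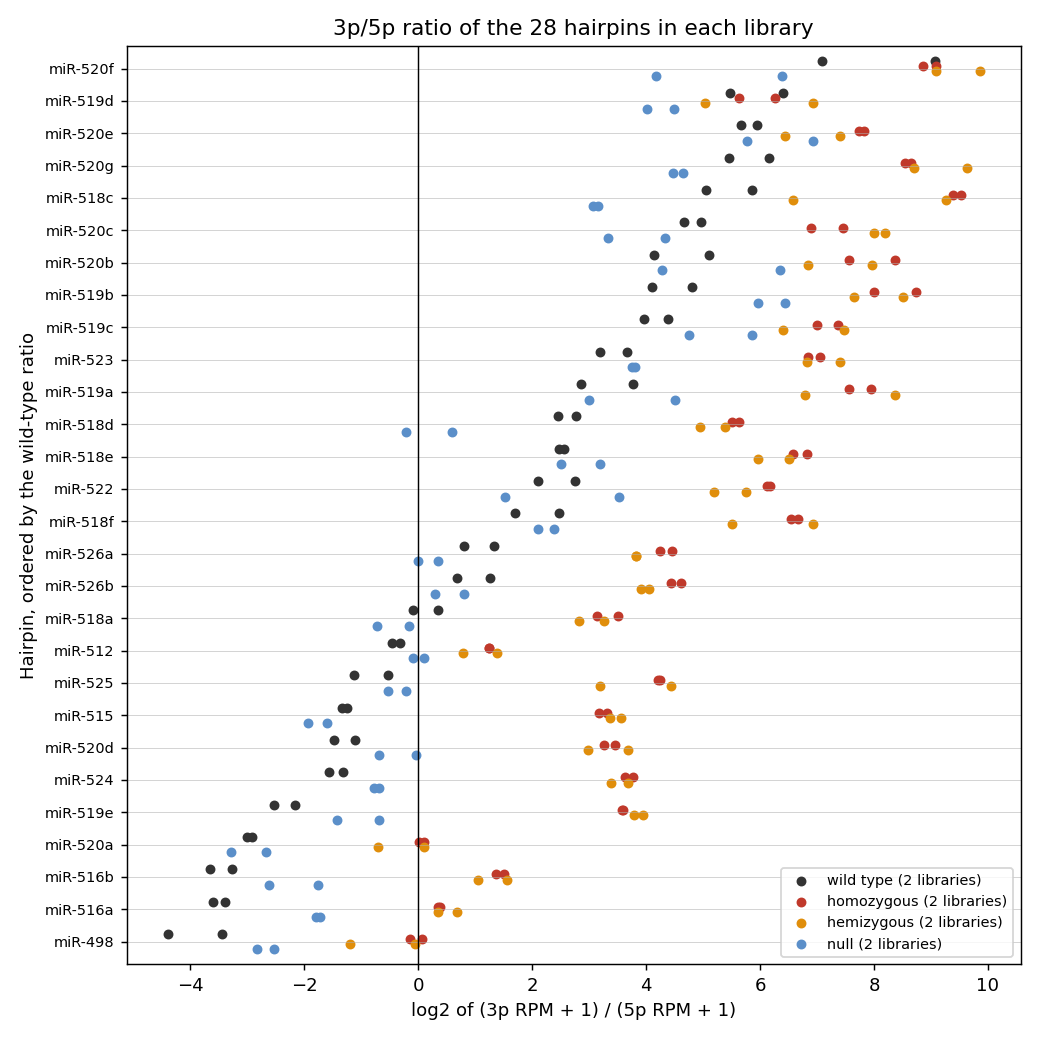
Log2 of (3p RPM + 1) over (5p RPM + 1) for the 28 hairpins, ordered by the wild-type ratio, with 1 point per library and 1 colour per genotype. Homozygous and hemizygous points lie to the right of the wild type for nearly every hairpin, except miR-519d and miR-520f at the top, and null points lie on either side of the wild type, with mean differences from -2.79 (miR-520f) to 1.75 (miR-516a).

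By this ratio the dominant arm changed sides in most hairpins with a 5p guide in S1344L cells. In the wild type 18 of 28 hairpins held more 3p than 5p on average, and in homozygous cells 27 did. Of the 10 hairpins with a 5p guide, 9 had more 3p than 5p in homozygous cells and 8 in hemizygous cells. The exceptions were miR-498, at -0.04 and -0.62, and in hemizygous cells miR-520a, at -0.30, where the arms came close to equal amounts. In homozygous cells miR-520a was counted as 3p at log2 ratios of only 0.10 and 0.02, also close to equal amounts. miR-498 had started from a log2 ratio of -3.92 ± 0.67 (SD, n = 2) and miR-520a from -2.96 ± 0.07 (SD, n = 2). In null cells 18 of 28 held more 3p than 5p as well, and 1 of the 10 hairpins with a 5p guide did.

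The 5p share of the cluster's reads gave the same picture in 1 number per library. Of all reads of members with a named arm, 33.1% (95% Wilson interval 32.9 to 33.3) and 32.6% (32.4 to 32.8) were 5p in the wild-type libraries. The share was 10.6% in each homozygous library (10.5 to 10.8 and 10.4 to 10.7). Hemizygous cells gave 14.3% (14.03 to 14.6) and 10.3% (10.1 to 10.4), and Dicer-null cells 27.0% (25.9 to 28.1) and 29.7% (28.4 to 31.0). The intervals cover counting error only. All S1344L libraries lay below all wild-type and null libraries, but with 2 libraries a group the exact two-sided permutation test gives p = 0.333 for each such comparison, the smallest it can give. The same share among the other miRNAs was 31.8% and 34.2% in the wild type and 11.2% and 10.6% in the homozygous libraries.

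By subfamily, the summed 5p arms of homozygous cells kept a share of the wild-type sum that ranged widely. It was 92.4% for miR-512, 38% for the 7 miR-520 arms, 27.6% for miR-517, 22% for the 2 miR-516 arms, 12.6% for the 6 miR-519 arms, 12.3% for the 5 miR-518 arms and 11.5% for miR-515. The other 7 5p arms, among them those of miR-498, miR-524, miR-525 and miR-526b, kept 22.4%. Without miR-520a-5p, the miR-520 sum would rest on arms that kept at most 39.97% (miR-520f-5p). The summed 3p arms came to 431% for miR-516, 286% for miR-512, 267% for miR-515, 128% for miR-518, 113% for miR-520, 108% for miR-517 and 108% for miR-519, with 94.2% for the other 7. The 3 subfamilies with the highest 3p sums relative to the wild type were those whose members all have a 5p guide. In hemizygous cells the summed 5p arms kept from 6.66% (miR-515) to 72.9% (miR-512).

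Members that name no arm were placed by their RefSeq hairpin. miR-1283 and miR-1323 lie on its 5′ side, and miR-518b, miR-520h and miR-521 on its 3′ side. miR-1323 stood at 5411 and 5307 RPM in wild-type cells, 1382 and 1262 with homozygous S1344L, 527 and 1469.8 with hemizygous S1344L, and 57.2 and 105 without Dicer. It was lower in every S1344L library than in either wild-type library, and its change was -2.02 ± 0.90 (SE; adjusted p = 0.0726) in homozygous and -2.60 ± 0.90 (SE; adjusted p = 0.0146) in hemizygous cells, a call lost without any 1 of the wild-type or homozygous libraries. miR-1283 went from 865 and 1287 RPM in the wild type, and 270.1 and 245 in homozygous cells, a change of -2.03 ± 0.98 (SE; adjusted p = 0.104). miR-518b, the most abundant of the 3′ set, went from 6844 and 7322 RPM in the wild type, and 9658 and 9989 in homozygous cells, a change of 0.47 ± 0.85 (SE; adjusted p = 0.749). miR-521 went from 1427 and 2337 RPM in the wild type, and 3097 and 2733 in homozygous cells, a change of 0.67. miR-527 was the 1 of the 6 that passed in homozygous cells, from 815 and 767 RPM in the wild type, and 98.5 and 83 in homozygous cells, a change of -3.11 ± 1.00 (SE; adjusted p = 0.0084). That call was also lost without any 1 of these 4 libraries.

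Grouping the members by seed shows which target-pairing sequences were lower or higher in the mutant cells. The seed of miR-515-5p and miR-519e-5p summed to 13360.2 and 13894 RPM in wild-type cells, 1666 and 1524 with homozygous S1344L, 467 and 1343 with hemizygous S1344L, and 245 and 417 without Dicer. That of miR-520d-5p and miR-524-5p summed to 6461 and 7209 RPM in wild-type cells, 364 and 309 with homozygous S1344L, 80.9 and 423 with hemizygous S1344L, and 56.4 and 124 without Dicer. The seed of miR-518d-5p, miR-518e-5p and miR-518f-5p, shared by 10 names with 3 sequences, summed to 3704 and 4243 RPM in wild-type cells, 235 and 243 with homozygous S1344L, 59.8 and 342 with hemizygous S1344L, and 103 and 192 without Dicer. All 3 pools were lower in every S1344L library than in the wild type. In the other direction, the seed of miR-515-3p and miR-519e-3p summed to 5012 and 4623 RPM in wild-type cells, 16465 and 15892 with homozygous S1344L, 5251 and 17112 with hemizygous S1344L, and 70.7 and 138 without Dicer. This pool comes from the same 2 hairpins as the first one. miR-516a-3p and miR-516b-3p, of 1 sequence, summed to 468 and 477 RPM in wild-type cells, 2049.6 and 2022 with homozygous S1344L, 540.0 and 2170.4 with hemizygous S1344L, and 7.86 and 20 without Dicer, higher in both homozygous libraries than in the wild type. Sums over seeds were not tested.

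**Figure D3:**
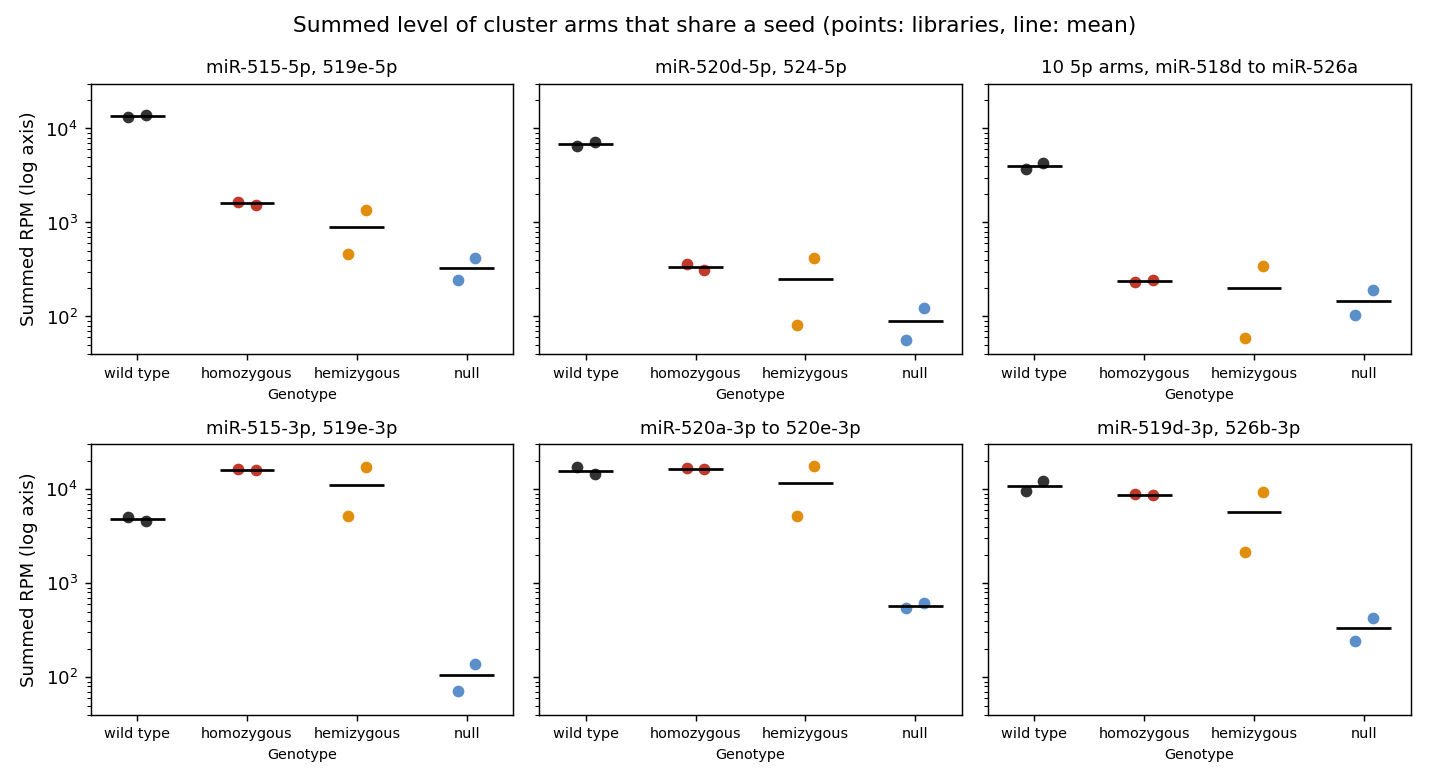
Summed RPM (log axis) of cluster arms that share a seed in each genotype, with 1 point per library and the mean as a line. The 5p groups in the upper row lie lower in S1344L cells, miR-515-3p with miR-519e-3p lies at 3.36 times the wild-type mean in homozygous cells, and the last 2 groups of the lower row stay near the wild type in homozygous cells.

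Some cluster seeds are also carried by abundant miRNAs elsewhere in the genome. AAAGUGC, the seed of miR-519d-3p and miR-526b-3p, is that of miR-17-5p, miR-20a-5p, miR-20b-5p, miR-93-5p, miR-106a-5p and miR-106b-5p, members of a family known to promote cell cycle progression. All 6 of these are 5p arms and all 6 were lower in homozygous cells, by log2 changes from -3.75 to -2.60. The cluster's arms gave 6.14% and 6.41% of the RPM with this seed in wild-type cells, 27.0% and 30.6% with homozygous S1344L, 27.0% and 26.5% with hemizygous S1344L, and 4.62% and 5.40% without Dicer. The cluster's own sum went from 10875 ± 1743 RPM (SD, n = 2) in the wild type to 8743 ± 199 in homozygous cells, while the sum of the others went from 162056 ± 20666 to 21730 ± 3187. miR-519d-3p went from 5106 and 6545 RPM in the wild type, and 6548 and 6189 in homozygous cells (adjusted p = 0.938), and miR-526b-3p from 4537 and 5563 RPM in the wild type, and 2336 and 2413 in homozygous cells (adjusted p = 0.415). AAGUGCU, the seed of miR-520a-3p to miR-520e-3p, is that of miR-302a-3p to miR-302d-3p, miR-302e, miR-372-3p and miR-373-3p, which are known to support pluripotency. Here the partners are mostly 3p arms, and the cluster gave 2.24% ± 0.27 (SD, n = 2) of the seed's RPM in the wild type, 1.82% ± 0.08 in homozygous, 1.74% ± 0.08 in hemizygous and 1.00% ± 0.01 in null cells. None of these 7 partners passed the test in homozygous cells.

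In hemizygous S1344L cells the arms of the cluster split as in homozygous cells. Of the 30 5p arms, 24 were lower, 0 were higher and 6 did not pass, with a median of -4.05, where 30.5% of all miRNAs were called lower and 4.04% higher. Of the 32 3p arms, 0 passed in either direction in the limma test, with a median of -0.58; 4 had an unadjusted p under 0.05. Both comparisons use the same wild-type libraries. The changes were -5.69 for miR-525-5p, -5.54 for miR-524-5p and -5.30 for miR-518f-5p, the 3 largest falls. miR-516a-5p, miR-517-5p and miR-520g-5p passed in hemizygous cells (-2.81, -2.78 and -3.47) and not in homozygous cells, a difference that is not shown to be one between the genotypes. Leaving out wild-type replicate 2 ended each of these 3 calls. Without hemizygous replicate 2, which leaves only the library that stood apart, 21 3p arms were called lower, and without hemizygous replicate 1 8 were called higher and 1 lower.

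The ratio differed less between the hemizygous libraries than the levels did, though not for each hairpin: the log2 ratio of miR-518c was 6.57 and 9.26. It moved toward 3p in 25 of 28 hairpins, where 76.9% of all hairpins did so, and the count was 24 or 25 with any 1 library left out. For miR-515, the hemizygous 5p arm read 342 and 1003 RPM and the 3p arm 3527 and 11882 RPM, but the log2 ratio read 3.36 and 3.56. The change for miR-515 was 4.75 ± 0.37 (SE; adjusted p = 1.43e-07), and that for miR-519e was 6.21 ± 0.40 (SE; adjusted p = 5.69e-08). The 3 hairpins that did not pass were miR-519d at 0.04, miR-520e at 1.11 and miR-520f at 1.40.

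Hemizygous and homozygous cells were also compared with each other. None of the 68 members passed in the limma test of levels and none of the 28 hairpins in that of the ratio, as for the whole table, where 0% passed in either measure. No 5p or 3p arm of the cluster had an unadjusted p under 0.05. The median difference of the 5p arms was -0.72 and that of the 3p arms -0.85, set beside -0.86 over all miRNAs. Differences of the ratio ran from -1.54 (miR-518c, ± 0.82 SE) to 0.92 (miR-520c, ± 0.60 SE). These tests do not show that the genotypes are alike, as the 2 hemizygous libraries differed widely in level. Without hemizygous replicate 2, which leaves only the library that stood apart, the median difference over all miRNAs was -1.83. Without hemizygous replicate 1 that median was 0.13.

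In null cells all 68 members were lower than in the wild type, where 87.4% of all miRNAs were called lower. Medians were -5.10 for the 5p arms and -5.01 for the 3p arms, so both arms fell by similar amounts. The highest null levels were those of miR-512-5p (329 and 463 RPM), miR-512-3p (309 and 497.8) and miR-519b-3p (393 and 394). miR-516a-5p had the largest 5p fall, with 16.4 and 34.6 RPM in the null and a change of -6.77 ± 0.94 (SE; adjusted p = 2.09e-11). miR-514a-3p, the member on chromosome X, had 0 reads in both null libraries, where 3 reads would be 2.14 and 3.99 RPM, and 16.4 and 16.3 RPM in the wild type. The size of these falls rests on the scale: the median over all miRNAs was -4.60 with the deposited scaling and -1.16 with libraries scaled to their totals of miRNA reads, with 14 5p arms then called lower. The ratio test, which that scale enters only through the RPM added to each arm, called 2 hairpins toward 3p (miR-516a at 1.75 and miR-519e at 1.29) and 2 toward 5p (miR-518c at -2.35 and miR-518d at -2.42), where 20.4% and 17.2% of all hairpins moved those ways. With 5 RPM added, 5 hairpins moved toward 3p and 8 toward 5p, and with the other scalings 1 each way.

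S1344L cells were also set against null cells, which asks how far each arm stayed above its level without Dicer. All 32 3p arms were higher in homozygous than in null cells, with a median of 5.11, where 76.3% of all miRNAs were called higher. Of the 30 5p arms, 13 (43.3%) were higher and 17 did not pass, with a median of 1.89. Outside the cluster 108 of 197 5p arms (54.8%, median 2.32) and 257 of 268 3p arms were higher. In hemizygous cells 32 3p arms and 10 5p arms (33.3%) were higher than in null cells, where 64.6% of all miRNAs were. The hemizygous counts outside the cluster were 70 of 197 5p arms (35.5%) and 241 of 268 3p arms. For 9 5p arms the homozygous mean was within 2-fold of the null (on the fitted log2 scale), and for 7 the libraries of the 2 groups overlapped. miR-526b-5p was the closest, at 102 ± 11.5 RPM (SD, n = 2) in homozygous and 107 ± 8.25 RPM (SD, n = 2) in null cells, from 2577 ± 346 RPM (SD, n = 2) in the wild type. miR-518f-5p followed, at 50.5 ± 3.45 RPM (SD, n = 2) and 47.6 ± 9.79 RPM (SD, n = 2). miR-525-5p lay 0.43 above the null on the log2 scale. At the other end, miR-516a-5p lay 5.00 above the null, miR-498-5p 4.69, miR-520a-5p 4.53 and miR-512-5p 4.19. With libraries scaled to their totals of miRNA reads, 3 5p arms were higher in homozygous than in null cells, so how near the 5p arms came to the null depends on the scale. The ratio moved toward 3p relative to the null in 27 of 28 hairpins in homozygous and in 27 in hemizygous cells, where 79.6% and 78.5% of all hairpins did, and miR-520e was the exception in both.

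**Figure D4:**
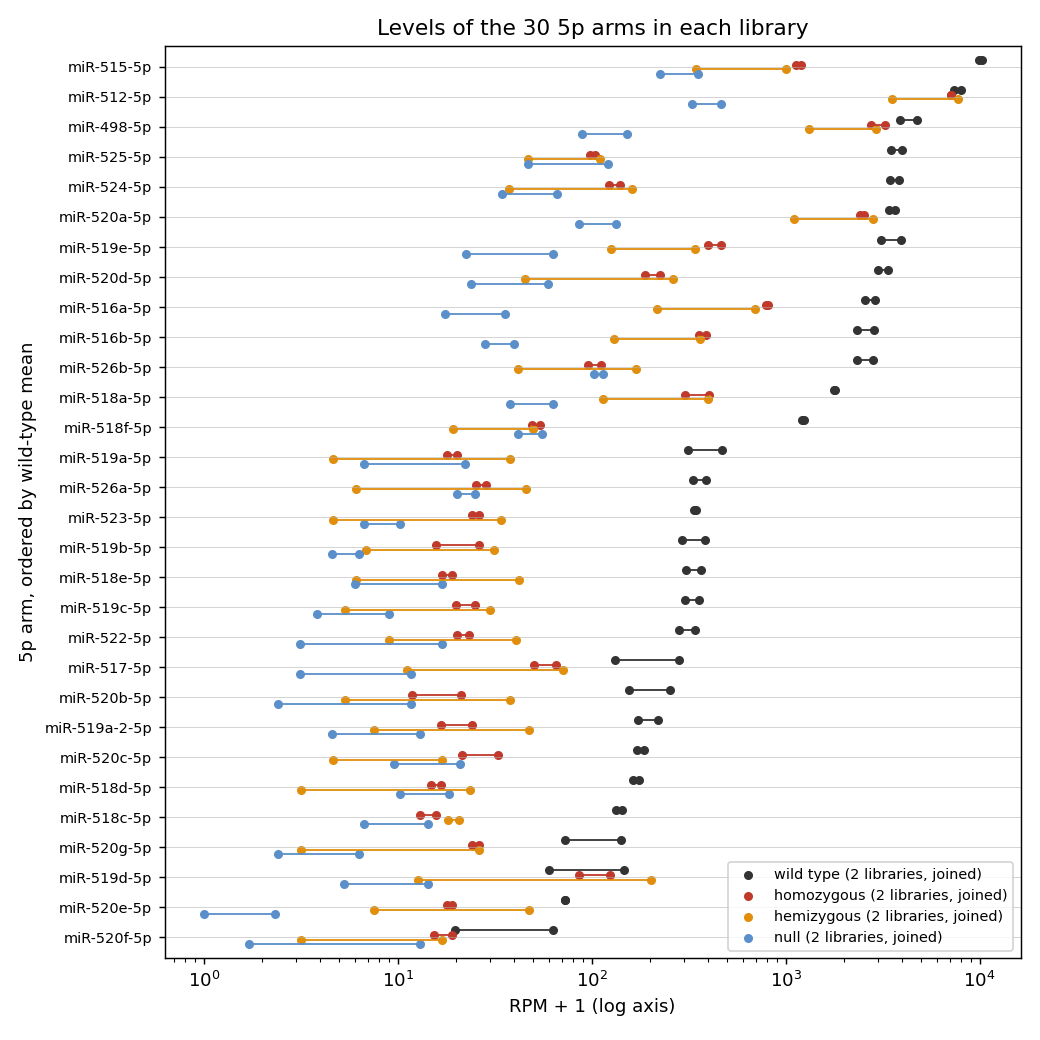
Level of each of the 30 5p arms in each library, as RPM + 1 on a log axis, ordered by wild-type mean, with the 2 libraries of a genotype joined. miR-512-5p, miR-498-5p and miR-520a-5p stay near the wild type in homozygous cells, while miR-525-5p, miR-526b-5p and miR-518f-5p lie among their null libraries.

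The spread among hairpins was set against what their sequences and positions give, as descriptions over hairpins that share libraries and partly share sequence. Over 26 hairpins with a RefSeq position for both arms, the number of bases between the arms (13 to 23 over the loci) had a Spearman correlation of -0.01 with the 5p change in homozygous cells and 0.11 with the change of the ratio. Over 21 hairpins of a single locus, the order along the cluster had a correlation of -0.31 with the 5p change and 0.11 with the change of the ratio. The changes of the 2 arms of a hairpin had a correlation of 0.52 over 26 hairpins, and both share the same libraries and scaling.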

How the data were processed

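Small RNA libraries of 8 samples were compared. Per the labels' protocols, RNA was extracted with Trizol, spike-ins went in before both linkers were ligated, and gel-selected, PCR-amplified products were sequenced as single reads. Per the submitters' processing notes, cutadapt, limma and build hg38 were used (versions not given). Not given in the sources used here are the aligner, the scaling and how reads that match several miRNAs were counted. The deposited values are log2 of reads plus 0.5 over a denominator per library; the reads came back whole within 5.59e-09, where the design had assumed CPM. The denominators are not the totals of miRNA reads.

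RPM plus 1 was put on the log2 scale and compared two-sided in limma 3.58.1 (R 4.3.3), fitting all 8 libraries together with a variance trend and Benjamini-Hochberg adjusted p under 0.05 over 594 miRNAs, all of which passed 5 RPM in 2 libraries. The 3p/5p ratio was tested likewise over 186 hairpins paired by name, and the 5p share by an exact permutation test. The fit was tested on simulated data with the same spread in all libraries and changes in homozygous libraries only. That setting held no library that stood apart, so it cannot show how the fit handles hemizygous replicate 1. Errors are SE of the fit or SD of 2 libraries. P-values measure the spread between libraries, and nothing beyond the label "biologically independent" says from which cultures they came.

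Named members are both arms of the most abundant hairpin of each subfamily, the 5 largest and 5 smallest ratio changes in homozygous cells, the 3 largest rises and falls that pass against the wild type, 5p arms of at least 100 RPM that do not pass, and 3p arms that pass in homozygous cells. Arms named outside this rule, and those paired by sequence, were chosen after their values were seen. The members and lists were chosen with earlier results of these data known. Figures were drawn with matplotlib 3.10.9. Alternatives were pseudocounts, filters, scalings, fits of fewer libraries, no trend, a replicate block, a stricter p and leaving out each library. Counting identical sequences once was added after seeing the data.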

Additional observations from a re-analysis of the deposited data

How the results depend on the processing

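The shift of the 3p/5p ratio toward 3p was the steadiest result: 26 hairpins in homozygous and 25 in hemizygous cells against the wild type stayed between 24 and 26 under all alternatives and with any library left out. Hairpins that share an arm sequence were each counted in those numbers. The counts of levels depended on the scaling. The shares of all miRNAs called under these settings are not given here, so the counts below describe the cluster without that background. In homozygous cells 3p arms called higher numbered 8, 13 and 24 when scaled to miRNA reads, by median ratios and by upper quartiles, and 11 with only the libraries compared; 3p arms called lower numbered 2, 1 and, with only the libraries compared, 2. In hemizygous cells 3p arms called higher numbered 7, 16 and 24 under the same 3 scalings, 2 with 5 RPM added, 1 with a filter of 50 RPM and 2 with the replicate block, and 3p arms called lower numbered 2 and 1 under the first 2. Against the wild type, null 5p arms called lower numbered 14, 9 and 5 under the 3 scalings and null 3p arms 11 and 6 under the last 2. Null hairpins moving toward 3p numbered 5 with 5 RPM added, 4 with the replicate block and 1 under each scaling, with only the libraries compared and at p under 0.01; those moving toward 5p numbered 1 with 0.5 RPM added, 8 with 5 RPM, 5 with the block and 1 under each scaling and at p under 0.01. 5p arms above the null numbered 3, 1 and 1 in homozygous cells under the 3 scalings and 3, 3 and 3 in hemizygous cells, with 5 for only the libraries compared and 6 at p under 0.01. Counting identical sequences once left 13 5p arms lower in homozygous cells. The median change over all miRNAs in homozygous, hemizygous and null cells was -0.05, -0.92 and -4.60 as deposited, -0.10, -0.24 and -1.16 scaled to miRNA reads, 0.37, 0.33 and -0.57 by median ratios and 0.82, 0.84 and -0.12 by upper quartiles.

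The 5p share was 35.9% in the wild type, 11.7% in homozygous and 31.6% in null cells over hairpins with both arms, and 29.3%, 10.7% and 24.7% without miR-515. Same-numbered deviations correlated at 0.61 between the wild-type and hemizygous groups. Between the other pairs of groups the correlation ran from -0.10 to 0.10, so replicate numbers did not pair the libraries across all groups. With the replicate block 21 5p arms were lower in homozygous and 25 in hemizygous cells.

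Of the 5p arms that did not pass, 4 turned sign. In homozygous cells miR-498-5p read 0.38 and miR-520a-5p 0.39 with upper quartiles, miR-512-5p 0.30 and 0.79 with median ratios and upper quartiles, and miR-519d-5p ran from -0.51 (without wild-type replicate 1) to 0.78 with any 1 library left out. In hemizygous cells, with median ratios and upper quartiles, miR-498-5p read 0.18 and 0.69, miR-512-5p 0.76 and 1.27, miR-519d-5p 0.37 and 0.87, and miR-520a-5p 0.31 and 0.82; miR-512-5p read 0.17 scaled to miRNA reads and miR-519d-5p ran from -2.895 without hemizygous replicate 2 to 1.10 without hemizygous replicate 1. The cause was not tested.

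Leaving out 1 library gave 6 to 24 5p arms lower and 0 to 7 3p arms higher (0 to 1 lower) in homozygous cells, and 17 to 30 5p arms lower, 0 to 8 3p arms higher and 0 to 21 lower in hemizygous cells. The count of 5p arms above the null ran from 8 to 17 in homozygous (8 without homozygous replicate 1 or null replicate 1) and 5 to 21 in hemizygous cells (5 without null replicate 1, 21 without hemizygous replicate 1). Null hairpins ran from 1 to 3 in each direction, and members that differed between hemizygous and homozygous cells from 0 to 58. The 5p share ran from 32.6% to 33.1%, 10.6% to 10.6%, 10.3% to 14.3% and 27.0% to 29.7% in wild-type cells, homozygous cells, hemizygous cells and the null. A group left with 1 library is assumed to vary like the others.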
